A study of Mus musculus with 2 samples.

Results

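The placental prolactin and pregnancy-specific glycoprotein families are sets of mouse genes expressed mainly in the placenta, and their array probes were taken here by gene name. The names were those of the placental prolactins (Prl2 to Prl8 subfamilies), the pregnancy-specific glycoproteins (Psg), the trophoblast specific proteins Tpbpa and Tpbpb, and the placental cathepsins (Cts3, Cts6, Cts7, Cts8, Ctsj, Ctsm, Ctsq and Ctsr). This gave 52 probes for 45 genes, of 39429 probes with 31829 names on the array. There were 27 probes for 22 prolactin family genes, 15 for 13 Psg genes, 2 for the 2 Tpbp genes and 8 for the 8 cathepsin genes. The probes were chosen by name and not by their signal, though earlier results of these data were known.

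Trophoblast cells of the mouse placenta secrete hormones of the prolactin family, which arose by repeated duplication of an ancestral prolactin gene. The placental lactogens among them bind the prolactin receptor, while proliferins and most others act by other routes or have no known receptor. Psg proteins are secreted members of the immunoglobulin superfamily, related to the carcinoembryonic antigen proteins, and are made by giant cells and spongiotrophoblast. Tpbpa marks the ectoplacental cone and spongiotrophoblast, and the placental cathepsins are cysteine proteases found in rodents beside the Tpbp genes. Embryonic stem (ES) cells that lose the transcription factor Oct4 are known to turn towards trophoblast, and the first markers to appear are those of trophectoderm and trophoblast stem cells. The families described here belong mostly to later, differentiated trophoblast.

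The study compared 3 monoclonal clones of ZHBTc4, a mouse ES line in which both endogenous Oct4 alleles are disrupted and Oct4 is supplied by a transgene under doxycycline repression. The clones carried a pCAG-IP vector with Nr5a2-EGFP (clone 26), Oct4-EGFP (clone 9) or EGFP alone (clone 2-5), and all were treated with doxycycline before harvest. All grew on gelatin without feeder cells, in 15% serum with 1000 IU/ml of LIF, the cytokine that sustains mouse ES cells. On each of 2 two-colour arrays the Nr5a2-EGFP clone was labelled with Cy5, once beside the EGFP clone in Cy3 and once beside the Oct4-EGFP clone in Cy3. In the last comparison, Oct4-EGFP over EGFP, the clones shared no array and their ratio was taken as the difference between the log2 ratios of the arrays. How long doxycycline was given is not stated in the sources used here. Each transgene was carried by 1 clone, so its effect and other differences between clones cannot be told apart. With 1 array per pair of clones and no dye swap, no test was possible and no value carries an error between cultures. The RNA came from whole cultures, so fewer cells of a type and less RNA per cell cannot be told apart.

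The one measurement made more than once was the Cy5 channel, which held the Nr5a2-EGFP clone on each array. Over 31189 probes the readings differed with an SD of 0.30 on the log2 scale, and 561 probes (1.80%) were at least 2-fold apart. For probes printed 10 times on each array, log2 ratios varied among spots with a median SD of 0.068 on the EGFP array and 0.066 on the Oct4-EGFP array. The brighter Nr5a2 probe had processed signals of 1407 and 1317 in Nr5a2-EGFP cells, against 2856 in Oct4-EGFP cells and 2641 in EGFP cells. The Pou5f1 probe, for Oct4, had 104 and 28.8 in Nr5a2-EGFP cells, 116 in Oct4-EGFP cells and 118 in EGFP cells. The parts of the genes that the transgenes carry are not given in the sources used here, so neither probe can serve as a check of the labels. Below, the first value given for Nr5a2-EGFP cells is from the EGFP array and the second from the Oct4-EGFP array, and signals are the scanner software's processed intensities. A bracketed number tells apart the probes of a gene that has several.

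Every probe is an oligonucleotide of 60 bases, printed here 5′ to 3′ with its position on mm9 as the files give it. All Psg probes lay on chromosome 7, between 17683714 and 19399396. The other members lay on chromosome 13, with 25 of the 27 prolactin family probes in 1.06 Mb, between 27186062 and 28243105. The files used here do not say which exon or untranslated region a probe falls in. The following probes are shown because they gave the 2-fold differences between clones, at chr7:18931259-18931318 on the minus strand for Psg18, chr13:27650118-27650177 on the minus strand for Prl8a9, chr7:17683714-17683774 on the plus strand for Psg16 and chr7:19015790-19015849 on the minus strand for Psg28 (2).
Psg18: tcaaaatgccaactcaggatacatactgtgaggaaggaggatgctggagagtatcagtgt
Prl8a9: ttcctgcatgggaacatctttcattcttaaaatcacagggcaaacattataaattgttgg
Psg16: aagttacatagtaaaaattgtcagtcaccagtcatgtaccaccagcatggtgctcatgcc
Psg28 (2): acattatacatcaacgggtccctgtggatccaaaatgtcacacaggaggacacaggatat

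Next come the probe of Psg28 (1), at chr7:19007912-19007971 on the minus strand, to set beside the other probe of that gene, and the probe of Psg20 (1), at chr7:19269767-19269826 on the minus strand, which was read on 1 array only. Those of Prl3b1 at chr13:27341385-27341444 and Prl3d1 (1) at chr13:27192036-27192095, both on the plus strand, belong to the 2 placental lactogens described below.
Psg28 (1): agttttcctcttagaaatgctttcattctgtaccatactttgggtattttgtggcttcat
Psg20 (1): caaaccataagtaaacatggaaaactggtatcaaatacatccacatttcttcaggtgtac
Prl3b1: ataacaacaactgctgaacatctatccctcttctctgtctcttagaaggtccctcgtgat
Prl3d1 (1): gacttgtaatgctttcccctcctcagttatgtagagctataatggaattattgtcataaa

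The Tpbpa probe at chr13:61040246-61040305 and the Ctsq probe at chr13:61136470-61136529, both on the minus strand, stand for defining placental markers that gave no signal above background in any clone.
Tpbpa: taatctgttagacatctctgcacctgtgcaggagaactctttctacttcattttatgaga
Ctsq: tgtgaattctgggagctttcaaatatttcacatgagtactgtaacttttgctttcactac

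Some members resemble probes of other transcripts, which bears on how a bright signal is read. A search of each member probe against all probes of the array, with BLAST at an expectation of at most 0.01, found 8 member probes with a similar probe, 5 of them to another member and 3 to a probe of no member. Capitals mark the stretch that aligns with the other transcript's probe for Prl3a1 (chr13:27368470-27368529, plus strand; 83.3% identical over 48 bases) and Psg23 (chr7:19191822-19191881, minus strand; 85.4% over 41 bases, on the opposite strand). For Psg21 (chr7:19232280-19232339) and Psg27 (chr7:19141942-19142001), both on the minus strand, capitals mark the stretch in which they align with each other, 87.0% identical over 46 bases.
Prl3a1: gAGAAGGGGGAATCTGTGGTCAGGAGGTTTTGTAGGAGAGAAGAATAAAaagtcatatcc
Psg23: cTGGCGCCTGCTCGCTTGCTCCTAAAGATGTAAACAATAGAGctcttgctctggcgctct
Psg21: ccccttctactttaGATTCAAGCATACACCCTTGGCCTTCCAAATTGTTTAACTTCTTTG
Psg27: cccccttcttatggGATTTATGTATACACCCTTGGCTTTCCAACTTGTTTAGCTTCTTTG

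In addition, 4 member probes are listed by RefSeq accession for more than 1 gene, so their signals cannot be assigned to one of them. Psg28 (2) is also listed for Psg18 and Psg26, Prl3d2 for Prl3d1 and Prl3d3, Prl2c5 (1) for Prl2c1, and Prl2c5 (2) for Prl2c2 and Prl2c3. All 52 probes matched a RefSeq accession with the same symbol as in the files. RefSeq holds 48 protein-coding genes with names of these families, and the 3 with no probe of their own (Prl2c2, Prl2c3 and Prl3d3) are among those listed on the shared probes.

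In every clone fewer than 26 of the 52 member probes gave a signal well above background, by the scanner software's flag. In Nr5a2-EGFP cells 25 of 52 probes (48.1%) were well above background in at least 1 reading, with 24 in each reading (78.2% and 77.4% of all probes) and 23 in both (76% of all probes). In Oct4-EGFP cells 21 (40.4%) were, and in EGFP cells 22 (42.3%). Of all probes on the array, 79.6% were well above background in at least 1 reading of Nr5a2-EGFP cells, 79.4% in Oct4-EGFP cells and 78.6% in EGFP cells. The share of members was thus lower than that of all probes in each clone, including the one that carries an Oct4 transgene. With the software's less strict flag, positive and significant against background, 37 members in Nr5a2-EGFP cells (89.8% of all probes), 33 in Oct4-EGFP cells (89% of all probes) and 33 in EGFP cells (88.4% of all probes) were read, which is more than 26 in each clone. The count above the 95th percentile of negative controls was 36 in Nr5a2-EGFP cells (89.7% of all probes), 32 in Oct4-EGFP cells (88.9% of all probes) and 31 in EGFP cells (88.4% of all probes). By these rules too the share of members was lower than that of all probes in each clone.

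Most members read in any channel were read in all 4, though a smaller share than among all probes (28964 of 33012). There were 28 members (53.8%, against 83.7% of all probes) well above background in at least 1 channel, of which 19 were so in all 4 channels (36.5%, against 73.5% of all probes), and 24 in none, with 1 member in 3 channels, 4 in 2 and 4 in 1. Of the 24, 13 lay below the 95th percentile of the negative control spots in every channel. The median GC content was 41.7% for the 19 probes read in all channels, 38.3% for the 9 read in some and 35.8% for the 24 read in none. The part of base composition in detection was not tested.

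By family, 10 of 27 prolactin family probes were well above background in at least 1 reading of Nr5a2-EGFP cells. There were 8 in Oct4-EGFP cells and 9 in EGFP cells. For the Psg family these counts were 10, 8 and 8 of 15 probes in the same order of clones. Nr5a2-EGFP cells had 2 readings and the other clones 1 each. In both readings 9 prolactin family and 9 Psg probes were well above background, and Psg20 (1) was so in only 1. Over all probes the shares in this order of clones were 79.6%, 79.4% and 78.6%, or 76% in both readings. The cathepsins gave 5 of 8 in each clone, and the same 5 genes were read in all 4 channels. Neither Tpbp probe was detected in any clone. The plot of processed signals shows these values for all members.

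**Figure D1:**
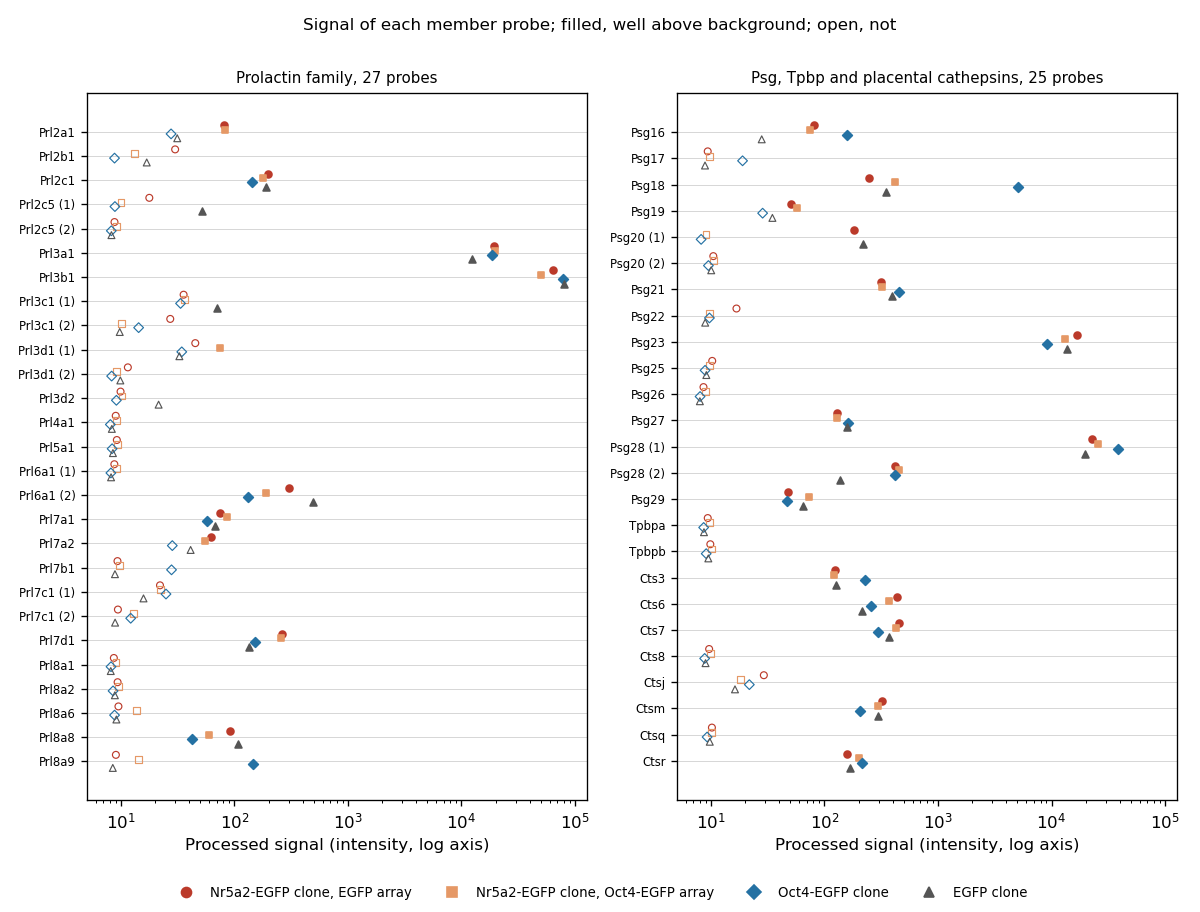
Processed signal (intensity, log axis) of the 52 member probes in the 4 channels, with the prolactin family on the left and the Psg, Tpbp and cathepsin probes on the right. Filled symbols are well above background and open symbols are not. Most probes show the symbols of all clones close together, while Psg18 and Prl8a9 stand apart in Oct4-EGFP cells. Psg20 (1) splits by array and not by clone, and the symbols of Psg16 and Prl2c5 (1) are also spread.

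Some known placental markers were among the members below background everywhere, while the probes of others, such as Prl3b1 and Psg23, were read in every channel. The Psg23 probe resembles that of another transcript, and whether the Prl3b1 or Psg23 probe binds other transcripts was not tested. Tpbpa, the marker of spongiotrophoblast, had signals of 9.39 and 9.67 in Nr5a2-EGFP cells, 8.64 in Oct4-EGFP cells and 8.70 in EGFP cells. Ctsq, a cathepsin of sinusoidal giant cells, had 10.2 and 10.2 in Nr5a2-EGFP cells, 9.27 in Oct4-EGFP cells and 9.78 in EGFP cells. The 95th percentile of negative controls was 11.1 and 11.4 in the readings of Nr5a2-EGFP cells, 10.2 in Oct4-EGFP cells and 10.5 in EGFP cells, so both markers lay under it in every channel. Prl8a2, the decidual prolactin-related protein that maternal decidua makes, read 9.37 and 9.58 in Nr5a2-EGFP cells, 8.54 in Oct4-EGFP cells and 8.86 in EGFP cells. These values are limits of detection on these arrays and do not show that the transcripts were absent.

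The other members dim in all channels were Tpbpb, Cts8, Ctsj, Psg17, Psg20 (2), Psg22, Psg25, Psg26, Prl2b1, Prl2c5 (2), Prl3c1 (2), Prl3d1 (2), Prl3d2, Prl4a1, Prl5a1, Prl6a1 (1), Prl7b1, both Prl7c1 probes, Prl8a1 and Prl8a6. Over the 24 dim probes the signals ran between 8.61 and 30.1 in the readings of Nr5a2-EGFP cells, between 8.04 and 28.0 in Oct4-EGFP cells and between 8.01 and 21.5 in EGFP cells. Ctsj and 1 Prl7c1 probe exceeded the 95th percentile of negative controls in all 4 channels without reaching the flag.

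The placental lactogens, the ligands of the prolactin receptor in this family, differed from each other in detection. Prl3d1, placental lactogen I of primary giant cells, has a probe (1) that read 45.3 and 75.1 in Nr5a2-EGFP cells, 34.4 in Oct4-EGFP cells and 32.8 in EGFP cells. Only the second of these was well above background, which puts Prl3d1 at least 1.42-fold higher in Nr5a2-EGFP cells than in Oct4-EGFP cells on that array, and the other reading of the same clone was not above background. This and the other at least N-fold limits hold for the normalization used here, and other scalings gave some smaller values. The limits take each level as read and leave out the spread between readings. That spread had an SD of 0.35 on the log2 scale for probes with a mean log2 level below 8. The other Prl3d1 probe and the Prl3d2 probe were dim in all channels, with signals of at most 21.5.

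Prl3b1, placental lactogen II, which succeeds lactogen I in later pregnancy, had signals of 63877 and 50213 in Nr5a2-EGFP cells, 78770.4 in Oct4-EGFP cells and 80695 in EGFP cells. The Cy5 signals were saturated on both arrays, so the value in Nr5a2-EGFP cells is a lower limit and no fold against the other clones is given. The log2 ratio of Oct4-EGFP over EGFP from the normalized Cy3 levels was 0.22, while the processed Cy3 signals above ran the other way. The Cy3 signals were not saturated, but their normalization also used the saturated Cy5 signals, so no direction is given. The probe was well above background in every clone, including the one with the Oct4 transgene.

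Prl3a1, prolactin-like protein I, read 19499.8 and 19872 in Nr5a2-EGFP cells, 18461 in Oct4-EGFP cells and 12279 in EGFP cells. Its log2 ratio was 0.68 for Nr5a2-EGFP over EGFP and 0.25 for Nr5a2-EGFP over Oct4-EGFP, within 2-fold in both. The readings of Nr5a2-EGFP cells differed by -0.44 on the log2 scale, and with the other reading the ratio over EGFP was 1.13 and that over Oct4-EGFP turned to -0.19. The similar probe of another transcript, named ENSMUST00000118959 in the files, read 13981 and 10306 in Nr5a2-EGFP cells, 7750 in Oct4-EGFP cells and 10924 in EGFP cells. Whether the Prl3a1 probe binds that transcript was not tested.

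Among the proliferins, growth factors of giant cells, and their relatives, no member was 2-fold apart between clones. Prl2c1 read 198 and 177 in Nr5a2-EGFP cells, 143 in Oct4-EGFP cells and 188 in EGFP cells, with log2 ratios between -0.10 and 0.09 in the 3 comparisons. Prl2c5 (1), a proliferin probe also listed for Prl2c1, read 17.8 and 10.0 in Nr5a2-EGFP cells, 8.87 in Oct4-EGFP cells and 51.6 in EGFP cells, the only one well above background. It was at least 1.01-fold lower in Nr5a2-EGFP cells than in EGFP cells, a limit close to no difference. Prl7d1, proliferin-related protein, an inhibitor of blood vessel growth, read 262 and 259.8 in Nr5a2-EGFP cells, 152 in Oct4-EGFP cells and 135 in EGFP cells. Its ratios, 0.60 over EGFP cells and 0.48 over Oct4-EGFP cells on the log2 scale, had the same sign, and its Nr5a2-EGFP readings differed by only -0.01.

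The remaining prolactin-like proteins, whose receptors are mostly unknown, included a few with all readings of one clone on the same side. Prl2a1, prolactin-like protein M, read 81.7 and 82.2 in Nr5a2-EGFP cells, 27.7 in Oct4-EGFP cells and 31.4 in EGFP cells. Only the Nr5a2-EGFP readings were well above background, so it was at least 1.48-fold higher there than in EGFP cells and at least 1.55-fold higher than in Oct4-EGFP cells. Prl7a2, prolactin-like protein F, had the same pattern with smaller limits, 61.7 and 55.2 in Nr5a2-EGFP cells, 28.4 in Oct4-EGFP cells and 41.2 in EGFP cells. The limits were 1.12-fold over EGFP cells and 1.31-fold over Oct4-EGFP cells. Over EGFP cells the log2 ratio of Prl7a2 was 0.16, or 0.07 with median centring. That is less than the SD of 0.35 between low-level readings, so no direction against EGFP cells is given.

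Prl7a1, prolactin-like protein E, read 75.3 and 85.5 in Nr5a2-EGFP cells, 57.2 in Oct4-EGFP cells and 67.7 in EGFP cells. Prl8a8 read 90.9 and 59.7 in Nr5a2-EGFP cells, 42.1 in Oct4-EGFP cells and 108 in EGFP cells, and its log2 ratios lay between -0.28 and 0.17. The readings of Nr5a2-EGFP cells for Prl8a8 were 0.33 apart on the log2 scale, more than either ratio that uses them. Prl3c1 (1), prolactin-like protein J, read 35.7 and 36.3 in Nr5a2-EGFP cells, 33.6 in Oct4-EGFP cells and 70.9 in EGFP cells, where alone it was well above background. It was at least 1.17-fold lower in Nr5a2-EGFP cells than in EGFP cells. Its log2 ratio there was -0.32, smaller in size than the SD of 0.35 between low-level readings.

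Prl6a1, prolactin-like protein B, has a probe (2) that read 303 and 192 in Nr5a2-EGFP cells, 131 in Oct4-EGFP cells and 494 in EGFP cells. The log2 ratio was -0.62 for Nr5a2-EGFP over EGFP, 0.34 for Nr5a2-EGFP over Oct4-EGFP and -0.96 for Oct4-EGFP over EGFP, or -1.33 from the Cy3 levels. It was thus highest in EGFP cells and lowest in Oct4-EGFP cells. The Nr5a2-EGFP readings differed by 0.37 on the log2 scale, more than the ratio over Oct4-EGFP, which was 0.71 with the other reading. The other Prl6a1 probe was dim in all 4 channels, so only 1 of its 2 probes gave a measurement.

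Prl8a9, a prolactin-like protein of the Prl8a subfamily, was well above background only in Oct4-EGFP cells. It read 9.05 and 14.3 in Nr5a2-EGFP cells, 147 in Oct4-EGFP cells and 8.50 in EGFP cells. It was at least 2.01-fold lower in Nr5a2-EGFP cells than in Oct4-EGFP cells. From the Cy3 levels it was at least 2.15-fold higher in Oct4-EGFP cells than in EGFP cells, and the indirect log2 ratio was 1.30, or 0.92 with median centring in place of loess. The other Prl8a probes, Prl8a1, Prl8a2 and Prl8a6, were dim in Oct4-EGFP cells as in the others, and Prl8a8 was lower there than in the other clones.

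Psg18 gave the widest difference of any member. It read 247 and 419 in Nr5a2-EGFP cells, 5050.2 in Oct4-EGFP cells and 348 in EGFP cells. The log2 ratio was -3.47 for Nr5a2-EGFP over Oct4-EGFP, -0.43 for Nr5a2-EGFP over EGFP and 3.04 for Oct4-EGFP over EGFP, or 3.72 from the Cy3 levels. The difference from Oct4-EGFP cells exceeded the 0.68 by which the Nr5a2-EGFP readings of this probe differed, while the difference from EGFP cells did not. The scanner software's error of the log2 ratio was 0.22 on the EGFP array and 0.39 on the Oct4-EGFP array, which covers spot and scanner noise only.

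Psg16, which is known to be expressed in the brain as well as in the placenta, also read highest in Oct4-EGFP cells. It had 81.6 and 75.2 in Nr5a2-EGFP cells, 159 in Oct4-EGFP cells and 28.0 in EGFP cells, where it was not well above background. It was at least 1.43-fold higher in Nr5a2-EGFP cells than in EGFP cells. From the Cy3 levels it was 2.34-fold higher in Oct4-EGFP cells than in EGFP cells, while the indirect log2 ratio was 1.17 (2.25-fold), or 1.02 with median centring. For Nr5a2-EGFP over Oct4-EGFP its log2 ratio was -0.65.

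Psg28 has 2 probes, both read in all 4 channels. Psg28 (2), which is shared with Psg18 and Psg26, read 422 and 454 in Nr5a2-EGFP cells, 416 in Oct4-EGFP cells and 137 in EGFP cells. Its log2 ratio was 1.09 for Nr5a2-EGFP over EGFP, 0.03 for Nr5a2-EGFP over Oct4-EGFP and 1.06 for Oct4-EGFP over EGFP. Psg28 (1), which RefSeq lists for Psg28 alone, read 22762 and 25717 in Nr5a2-EGFP cells, 38745 in Oct4-EGFP cells and 19693 in EGFP cells, with log2 ratios of 0.22, -0.41 and 0.63 in the same comparisons. Its Nr5a2-EGFP readings differed by -0.58 on the log2 scale, more than its ratio over EGFP or over Oct4-EGFP, and from the Cy3 levels Oct4-EGFP over EGFP was 1.21. Both probes were lower in EGFP cells than in the other clones. The shared probe did not follow Psg18, for which it is also listed and which was far lower in Nr5a2-EGFP cells than in Oct4-EGFP cells.

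The other Psg probes read in all channels stayed within 2-fold in every comparison. Psg23 read 16867 and 13058 in Nr5a2-EGFP cells, 9060.5 in Oct4-EGFP cells and 13682 in EGFP cells, with a log2 ratio of 0.49 over Oct4-EGFP. The probe that resembles it on the opposite strand, for the transcript ENSMUST00000070646, had 60678 and 47340 in Nr5a2-EGFP cells, 43159 in Oct4-EGFP cells and 49030 in EGFP cells. Its ratios, 0.50 over EGFP cells and 0.38 over Oct4-EGFP cells on the log2 scale, had the same signs as those of Psg23, and whether one bears on the other was not tested.

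Psg21 read 313 and 319.7 in Nr5a2-EGFP cells, 455 in Oct4-EGFP cells and 392 in EGFP cells. Psg27, whose probe aligns with that of Psg21, read 130.0 and 128 in Nr5a2-EGFP cells, 162 in Oct4-EGFP cells and 157 in EGFP cells. The order of the clones was the same for both, with log2 ratios over EGFP of -0.33 for Psg21 and -0.17 for Psg27 and over Oct4-EGFP of -0.49 and -0.30. Psg29 read 47.4 and 72.5 in Nr5a2-EGFP cells, 46.9 in Oct4-EGFP cells and 65.4 in EGFP cells. Psg19 was above background only in Nr5a2-EGFP cells, with 51.1 and 56.9 there, 28.6 in Oct4-EGFP cells and 34.8 in EGFP cells, and it was at least 1.17-fold higher there than in Oct4-EGFP cells. Against EGFP cells its log2 ratio was 0.17, or -0.01 with median centring, so no direction is given.

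Psg20 (1) was read on 1 array and not on the other. On the EGFP array it had 184 in Nr5a2-EGFP cells and 218 in EGFP cells, while on the Oct4-EGFP array it had 9.07 in Nr5a2-EGFP cells and 8.21 in Oct4-EGFP cells. The 2 readings of Nr5a2-EGFP cells, which the labels give as the same clone, were 1.85 apart on the log2 scale. From the Cy3 levels alone it would be at least 2.76-fold lower in Oct4-EGFP cells than in EGFP cells, but the ratio through Nr5a2-EGFP cells was -0.16. Of all probes, 426 (1.08%) were well above background in both channels of the EGFP array and in neither of the Oct4-EGFP array, and 340 (0.862%) the other way round. Psg20 (1) was the only member among the 426, and no member was among the 340. Its signal thus differed between the arrays within the same clone, and no difference between clones is drawn from it.

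**Figure D2:**
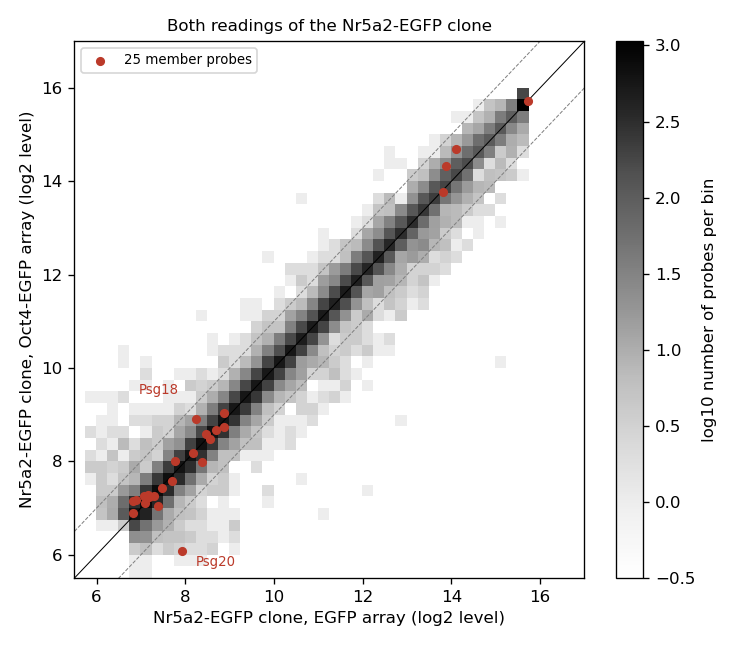
Log2 levels of Nr5a2-EGFP cells in Cy5 on the EGFP array (horizontal) and on the Oct4-EGFP array (vertical). Grey squares give the number of probes per bin on a log10 scale, red points are the 25 member probes well above background in at least 1 reading, and dashed lines mark 2-fold. Psg20 lies outside the dashed lines, at a difference of 1.85, and the other 24 members lie between them.

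Over the 25 members read in Nr5a2-EGFP cells, the SD of the difference between readings was 0.46, and Psg20 was the 1 member at least 2-fold apart, against 1.80% of all probes. The correlation of the readings across 29954 probes was 0.994, a description across probes that share both arrays and the scanner settings.

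The placental cathepsins that were detected varied little. Cts6 read 436 and 367 in Nr5a2-EGFP cells, 259.6 in Oct4-EGFP cells and 214 in EGFP cells, with a log2 ratio of 0.76 over EGFP cells and of 0.33 over Oct4-EGFP cells. Cts7 read 458 and 430.3 in Nr5a2-EGFP cells, 296 in Oct4-EGFP cells and 367 in EGFP cells. Both were highest in Nr5a2-EGFP cells, in each reading.

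Cts3 read 125 and 122 in Nr5a2-EGFP cells, 226 in Oct4-EGFP cells and 126 in EGFP cells, and its log2 ratio of -0.66 over Oct4-EGFP was the lowest of the family. Ctsm read 320.1 and 298 in Nr5a2-EGFP cells, 207 in Oct4-EGFP cells and 294 in EGFP cells. Ctsr read 159 and 203 in Nr5a2-EGFP cells, 213 in Oct4-EGFP cells and 167 in EGFP cells. No cathepsin of this family reached 2-fold in any of the 3 comparisons, and Cts8, Ctsj and Ctsq were not read.

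Members at least 2-fold apart were counted for each comparison, beside the share of all measured probes. Probes counted as measured where at least 1 of the compared channels rose well above background, and for Oct4-EGFP over EGFP these are the Cy3 channels. For Nr5a2-EGFP over EGFP, 1 of 26 measured members, Psg28 (2), was at least 2-fold higher, against 3.35% of all measured probes, and 0 were at least 2-fold lower, against 5.21%. The median log2 ratio was 0.02 for members and 0.01 for all 31871 probes. For Nr5a2-EGFP over Oct4-EGFP, 0 of 25 members were at least 2-fold higher, against 4.49% of all probes, and 2, Psg18 and Prl8a9, were at least 2-fold lower, against 7.45%. The medians were 0.22 for members and -0.00 for all 31951 probes.

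For Oct4-EGFP over EGFP, 4 of 24 members were at least 2-fold higher, a larger share than the 6.67% of all probes. At least 2-fold lower were 0 members, against 5.96% of all probes. Those higher were Psg16, Psg18, Psg28 (2) and Prl8a9, and the Psg28 (2) probe is also listed for Psg18. The medians were 0.11 for members and 0.02 for all 32353 probes. The 3 comparisons share channels, so these counts are not independent of each other. A member that passed the background filter through 1 clone alone had to be high there, and the counts are given as descriptions.

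**Figure D3:**
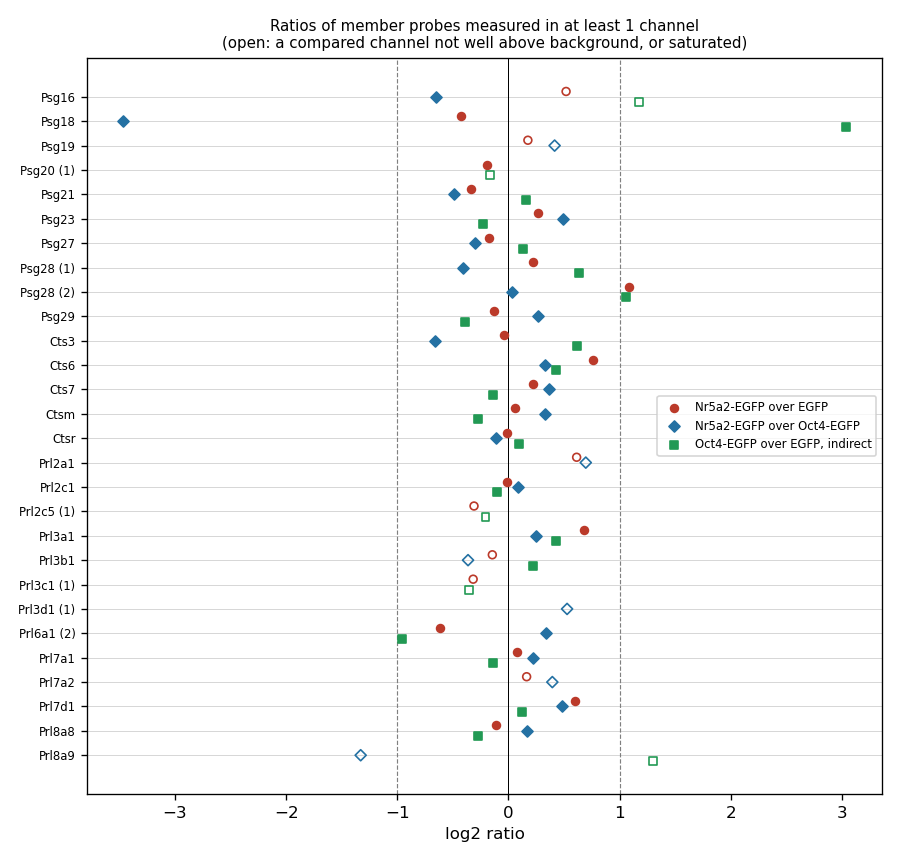
Log2 ratios of the 28 member probes well above background in at least 1 channel, for Nr5a2-EGFP over EGFP, Nr5a2-EGFP over Oct4-EGFP and the indirect ratio of Oct4-EGFP over EGFP. Open symbols have a compared channel that was dim or saturated, and dashed lines mark 2-fold. Psg18 lies at -3.47 over Oct4-EGFP and 3.04 for Oct4-EGFP over EGFP, and most other points lie between the dashed lines.

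The other genes of trophoblast were described from 9 lists of marker genes, with the brightest probe of each gene. Over all genes, the share at least 2-fold higher was 3.35% and the share lower 5.07% for Nr5a2-EGFP over EGFP, 4.55% and 7.11% for Nr5a2-EGFP over Oct4-EGFP, and 6.49% and 5.86% for Oct4-EGFP over EGFP. In the list of trophoblast stem cell and trophectoderm genes, 11 of 12 were measured. Of these, 5 were at least 2-fold higher in Nr5a2-EGFP cells than in Oct4-EGFP cells and 0 lower, with a median log2 ratio of 0.52. Cdx2, the trophectoderm factor, had 4.48 and Lcp1 had 4.25. Against EGFP cells 2 of the 11 were higher, Sox21 (1.70) and Gata3 (1.00, or 0.90 with the other reading), and 0 lower, with a median of -0.03. In Oct4-EGFP over EGFP, 1 was higher and 5 were lower, with Cdx2 at -4.83 and Lcp1 at -3.92.

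The ectoplacental cone and spongiotrophoblast list, of the lineage in which Tpbpa and many Psg genes are normally expressed, had 7 of 12 measured genes at least 2-fold higher in Nr5a2-EGFP cells than in Oct4-EGFP cells and 0 lower, with a median of 1.06. Phlda2, an imprinted gene of placental growth, had 3.39 and Peg10, an imprinted gene needed for spongiotrophoblast, had 3.28. Over EGFP, 1 of 13 was higher (Peg10, 1.28) and 1 lower (Igf2, -1.42), with a median of 0.13. With the other Nr5a2-EGFP reading Igf2 was at 0.15 over EGFP and 0.79 over Oct4-EGFP, and the list had 5 higher over Oct4-EGFP and 0 lower over EGFP. The Igf2 reading was 95.3 on the EGFP array and 398 on the Oct4-EGFP array in Nr5a2-EGFP cells, against 14.4 in Oct4-EGFP cells, where it was not well above background, and 390.0 in EGFP cells. When Oct4-EGFP was set over EGFP, 0 of 11 were higher and 6 lower, with a median of -1.38 and Phlda2 at -3.46.

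The list drawn up as giant cell regulators had 5 of 11 genes at least 2-fold higher in Nr5a2-EGFP cells than in Oct4-EGFP cells and 0 lower, with a median of 0.82. It includes Esx1 (1.78), and whether each listed gene is particular to giant cells was not tested. Gata2, which together with Gata3 is known to regulate the placental lactogen I gene, had 3.12, and Hand1, needed for giant cells, had 2.21. Over EGFP, 1 was higher (Junb, 1.73) and 1 lower (Hand1, -1.27), with a median of 0.17, and with the other reading 3 were lower. Set over EGFP, Oct4-EGFP had 0 higher and 4 lower, with a median of -0.04, Hand1 at -3.47 and Esx1 at -2.48. These values stand beside a Prl3d1 probe that was well above background in 1 channel of 4.

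The syncytiotrophoblast and labyrinth list had 0 of 10 higher and 1 lower in both comparisons of Nr5a2-EGFP cells, the lower gene being Ly6e, at -1.06 over EGFP and -1.02 over Oct4-EGFP, beside 0.83 for Slc16a3 over EGFP and 0.98 for Slc16a1 over Oct4-EGFP. With the other reading Ly6e was at -0.87 over EGFP, short of 2-fold. The medians were -0.23 over EGFP and -0.09 over Oct4-EGFP. Both include Gcm1, saturated in all 4 channels, and Ovol2, saturated in every channel but that of EGFP cells, so the ratios of these genes are not reliable. For Oct4-EGFP over EGFP 1 was higher (Slc16a3, 1.19) and 1 lower (Dlx3, -1.65), with a median of -0.15. The placental families thus showed a median of 0.22 for Nr5a2-EGFP over Oct4-EGFP, beside 0.52, 1.06, 0.82 and -0.09 for the 4 trophoblast lists. With the Nr5a2-EGFP reading of the other array the placental families had a median of 0.04, beside 0.63, 0.80, 0.80 and -0.01, and 1 gene was lower in each of the trophoblast stem cell, giant cell and labyrinth lists and 1 higher in the last. The placental family median was 0.50 with the software's processed signals and 0.02 with no background filter. Whether these medians differ was not tested.

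**Figure D4:**
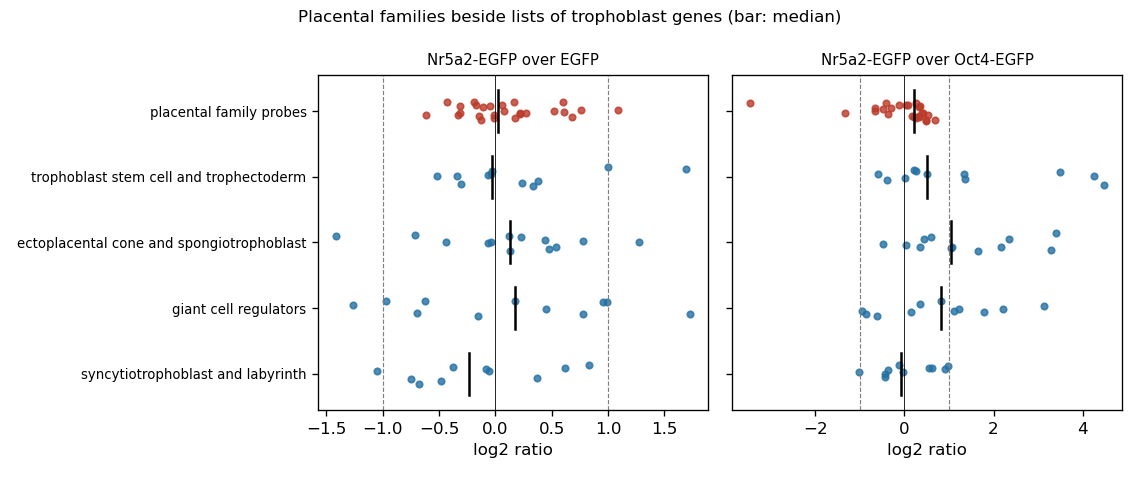
Log2 ratios of the measured placental family probes (red) and of the measured genes of 4 trophoblast lists (blue), for Nr5a2-EGFP over EGFP (left) and Nr5a2-EGFP over Oct4-EGFP (right), with a black bar at each median. Dashed lines mark 2-fold, and genes with 1 dim channel or with saturated channels are included. On the right, 5 trophoblast stem cell, 7 ectoplacental and 5 giant cell genes lie beyond 2-fold on the higher side and no placental family probe does.

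The list of other cathepsins, which are not of the placental family, had 2 of 9 genes at least 2-fold higher in Nr5a2-EGFP cells in both comparisons. These were Ctsb, at 1.65 over EGFP and 1.46 over Oct4-EGFP, and Ctsl, at 1.35 over EGFP and 1.32 over Oct4-EGFP, and 0 were lower. None of 8 was 2-fold apart for Oct4-EGFP over EGFP, with Ctsf at 0.77 and Ctsd at 0.57. The list's medians were 0.25 over EGFP, 0.18 over Oct4-EGFP and 0.11 for Oct4-EGFP over EGFP.

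Relatives of the placental families outside the naming rule, among them pituitary prolactin, the receptors and Ceacam genes, had 7 of 10 genes measured. The prolactin gene Prl itself was dim. The prolactin receptor gene Prlr, through which placental lactogens act, read 461 and 533 in Nr5a2-EGFP cells, 611 in Oct4-EGFP cells and 226 in EGFP cells. Its log2 ratio was 0.75 for Nr5a2-EGFP over EGFP, -0.25 for Nr5a2-EGFP over Oct4-EGFP and 1.00 for Oct4-EGFP over EGFP. Ceacam10, of the family from which Psg genes descend, was the 1 lower gene over EGFP (-1.20), and Ceacam2 the 1 lower over Oct4-EGFP (-1.66), with 0 higher in either. There were 3 higher for Oct4-EGFP over EGFP, Ceacam2 (1.15), Ceacam16 (1.01) and Prlr, and 0 lower. The medians were -0.24 over EGFP, or 0.34 with the other reading, -0.52 over Oct4-EGFP and 0.35 for Oct4-EGFP over EGFP.

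Markers of other cell types moved between the same clones. Of 10 pluripotent ES cell genes measured for Nr5a2-EGFP over Oct4-EGFP, 0 were at least 2-fold higher and 8 lower, with a median of -2.13. Nr0b1 had -3.25 and Foxd3 -2.82. Nanog was saturated in every channel but that of EGFP cells, so its ratio is not reliable. Over EGFP, 0 of 8 were higher and 1 lower (Fgf4, -2.20, with Tdh at 0.75). With the other Nr5a2-EGFP reading Fgf4 turned to 0.73, 2 genes were higher and 0 lower. Fgf4 read 2067 and 12175 in Nr5a2-EGFP cells, 80799.9 in Oct4-EGFP cells, where it was saturated, and 9430.0 in EGFP cells. For Oct4-EGFP over EGFP 7 of 10 were higher and 0 lower, with a median of 2.02, and Nr0b1 and Foxd3 were well above background in Oct4-EGFP cells but not in EGFP cells. Psg18, Prl8a9 and Psg16 thus read highest in the clone in which the pluripotency list was also highest, and the part of ES cell content in their values was not tested.

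Of 8 primitive endoderm genes, 2 were at least 2-fold higher in Nr5a2-EGFP cells than in Oct4-EGFP cells, Dab2 (1.86) and Lamb1 (1.63), and 0 lower. Over EGFP 0 were apart, with Dab2 at -0.78 (-1.03 with the other reading) and Lamb1 at -0.71, and for Oct4-EGFP over EGFP 0 were higher and 2 lower, Dab2 (-2.64) and Lamb1 (-2.34). Of the neural and mesoderm genes, 1 of 5 was higher (Pax6, 1.26) and 1 lower (Sox1, -2.55) over Oct4-EGFP. Over EGFP 0 of 6 were apart, with Kdr at 0.70, and Hand2 was read in EGFP cells only. For Oct4-EGFP over EGFP 1 of 6 was higher (Sox1, 2.38) and 1 lower (Pax6, -1.52).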

How the data were processed

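RNA of 3 clones was hybridised on 2 two-colour arrays (design 026655, probe positions on mm9 per the file headers). Spot intensity values came in the deposited scanner files, made with Agilent Feature Extraction 10.7.3.1 per the file headers, or 9.3.2.1 per the submitters' processing notes. Processed intensity values were background-subtracted and dye-normalized by that software, per the file headers, which also wrote the log10 ratio of Cy5 over Cy3 and its error, a score from its error model, as deposited. A value table of log2 ratios, also deposited by the authors, tracked the scanner ratios (r = 0.997 for each array) and had a median of 0.03 on the EGFP array and 0.05 on the Oct4-EGFP array. This gives its direction, while its scale and centring are unknown here.

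From mean signals and local backgrounds, normexp correction with an offset of 50, loess within arrays and Aquantile between them were run in limma 3.58.1 (R 4.3.3). Control spots and outlier spots (530 and 523) were left out, and spots of a probe were averaged. The labels fix the direction as Cy5, the Nr5a2-EGFP clone, over Cy3. The normalization was checked by multiplying the Cy5 signal of some probes on these arrays by known folds. Those probes were well above background in Cy3 and unsaturated in Cy5, so the check does not cover dim or saturated members. Where 1 channel was dim, at least N-fold is given from the measured level and the higher of the dim level and the lowest level well above background. Named were all members well above background in at least 1 channel, the dim members, and the 2 genes of each list with the largest ratios. A gene met by this rule in one comparison may be given in all. Probe alignments used BLAST 2.17.0, and gene names were matched to a RefSeq table of mouse by accession. The members and lists were chosen with earlier results of these data known. No test was run, since each pair of clones has 1 array. The number of arrays limits the precision, and direct ratios are open to dye bias.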

Additional observations from a re-analysis of the deposited data

How the results depend on the processing

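Each member ratio was computed again with other settings, and none of those at least 2-fold apart in the normalization used above changed sign. With the software's processed signals, which carry no added offset, 4 members were at least 2-fold higher for Nr5a2-EGFP over EGFP in place of 1 (Psg28 (2), Psg16, Prl2a1 and Cts6) and 1 lower in place of 0 (Prl2c5 (1)). For Nr5a2-EGFP over Oct4-EGFP 2 were higher in place of 0 (Prl2a1 and Prl3d1 (1)) and 3 lower in place of 2 (Psg16, -1.08, beside Psg18 and Prl8a9), and for Oct4-EGFP over EGFP 4 were lower in place of 0 (Psg29, Prl2c5 (1), Prl3c1 (1) and Prl6a1 (2)). Prl8a9 then had a log2 ratio of -3.35 over Oct4-EGFP in place of -1.33. With an offset of 16 in place of 50, 1 member was lower for Oct4-EGFP over EGFP (Prl6a1 (2), -1.08), and from the Cy3 levels 2 were lower (Psg20 (1), -2.01, and Prl6a1 (2)) and 5 higher in place of 4 (Psg28 (1), 1.21, was added). Psg20 (1) was at 0.16 in that comparison with median centring. With the Nr5a2-EGFP level of the other array, 2 members were higher than in the EGFP clone (Psg28 (2) and Prl3a1) and 1 lower (Psg20 (1), -2.04). When every channel compared had to be well above background, Psg18 was the 1 member lower than in the Oct4-EGFP clone in place of 2, and 2 members were higher for Oct4-EGFP over EGFP in place of 4 (Psg18 and Psg28 (2)). With median centring Prl8a9 fell short of 2-fold for Oct4-EGFP over EGFP, at 0.92. With the positive-and-significant flag 37 members in place of 25 were detected in the Nr5a2-EGFP clone, 33 in place of 21 in the Oct4-EGFP clone and 33 in place of 22 in the EGFP clone, and above the 95th percentile of negative controls 36, 32 and 31, more than 26 of 52 in each clone. The marker lists were counted with the other Nr5a2-EGFP reading, and from the Cy3 levels, as alternatives chosen after seeing the data. Between the offsets of 50 and 16 only the offset was changed, and the log2 ratio of Prl8a9 over Oct4-EGFP moved from -1.33 to -1.77. The causes of the other shifts were not tested. Psg18 and Psg28 (2) kept their 2-fold differences under every scaling tried. So did Psg16 for Oct4-EGFP over EGFP and Prl8a9 for Nr5a2-EGFP over Oct4-EGFP, each with a dim channel in that comparison. No paired analysis was possible because each pair of clones has 1 array. Signal over background limits most members: 24 of 52 were dim in all channels, where a difference could not be measured.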
